A study of Mus musculus with 10 samples.

Results

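The genes of the voltage-gated and related potassium, sodium and calcium channels were examined in sarcomas of a pair of mouse models. Members were the protein-coding genes of the count table whose mouse symbol starts with Kcn, Cacna1, Cacna2d, Cacnb or Cacng, or reads Scn, a number and a or b. The rule found 134 genes among 21630 protein-coding genes and 56750 features, namely 94 potassium channel genes (Kcn), 26 calcium channel genes (Cacn) and 14 sodium channel genes (Scn). Total RNA of whole tumors was sequenced after rRNA depletion, with 3 dFLEx tumors (170019, 170024 and 170025, 6 libraries) set against 2 KP tumors (3800 and 3802, 3 libraries). The dFLEx tumors carried the genotype dFLEx CDS +/-, in which a CIC::DUX4 fusion gene under the ubiquitous CAG promoter is switched on by Cre and FLP together, and they arose after plasmids for both recombinases were electroporated into the gastrocnemius muscle. The KP tumors came from mice with p53fl/fl and a further engineered allele that is not given here. The groups shared no engineered allele, and the initiating alleles and the tumor type cannot be told apart. The labels give no age for either group. Both are whole-tumor samples in which sarcoma cells, muscle, vessels and immune cells are mixed, and fewer cells of a type and less RNA per cell cannot be told apart in such samples.

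Voltage-gated channels are built around a pore-forming alpha subunit that opens when the membrane potential changes. Sodium channels (Nav, the Scn genes ending in a) carry the upstroke of the action potential, calcium channels (Cav, Cacna1) couple depolarization to contraction, secretion and transcription, and potassium channels (Kv) return the cell to rest, while inward rectifier (Kir) and two-pore (K2P) potassium channels set the resting potential. In skeletal muscle, Scn4a fires the fiber, Cacna1s with Cacnb1, Cacna2d1 and Cacng1 senses the voltage that opens the ryanodine receptor Ryr1, and the vascular wall is known for the ATP-sensitive channel of Kcnj8 and its partner Abcc9.

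CIC binds an 8-base element, and the CIC::DUX4 fusion keeps the CIC DNA-binding part, so the promoters of the channel genes were searched for TGAATGAA, TGAATGGA, TCAATGAA and TCAATGGA on both strands. RefSeq start-site windows (build GRCm38.p6) were found for 98 of the 134 channel genes, and 5 of these (5.10%) held an element in the 250 bases before the start, beside 3.71% of all 27025 genes with a window. The 5 were Kcnj10, Kcnip4, Kcns3, Scn8a and Scn10a. A match is a description of the letters only, and no match says nothing of binding. Of the 20 members chosen below for the highest and lowest fold changes, 14 had a window, and Kcnj10 alone among them held an element, 9 bases before its start and on the strand opposite to the gene. Its 250 upstream bases are printed with those of Kcnj15, the inward rectifier gene with the smallest adjusted p, and with those of Kcnn4 and Kcnf1, which were higher in the KP tumors. Each sequence is in the direction of the gene, 5′ to 3′, ends at the base before the start, and has the element in capitals. Each matched the GRCm39 chromosome at a single place, directly before the annotated gene start.
Kcnj10 (chr1:172168527-172168776, + strand): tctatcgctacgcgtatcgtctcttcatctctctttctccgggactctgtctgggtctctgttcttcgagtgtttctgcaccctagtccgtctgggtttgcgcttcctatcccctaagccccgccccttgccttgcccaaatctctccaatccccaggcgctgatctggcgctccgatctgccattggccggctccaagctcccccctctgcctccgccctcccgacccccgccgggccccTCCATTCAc
Kcnj15 (chr16:95058167-95058416, + strand): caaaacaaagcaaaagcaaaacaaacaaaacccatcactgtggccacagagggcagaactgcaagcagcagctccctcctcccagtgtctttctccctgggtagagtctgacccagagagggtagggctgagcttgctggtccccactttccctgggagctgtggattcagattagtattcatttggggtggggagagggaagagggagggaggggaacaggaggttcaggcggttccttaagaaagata
Kcnn4 (chr7:24069438-24069687, + strand): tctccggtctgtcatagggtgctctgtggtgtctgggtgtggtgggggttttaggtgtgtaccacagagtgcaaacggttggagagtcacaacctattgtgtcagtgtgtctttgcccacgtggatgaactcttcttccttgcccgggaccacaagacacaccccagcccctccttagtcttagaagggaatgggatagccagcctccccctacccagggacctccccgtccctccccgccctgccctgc
Kcnf1 (chr12:17226890-17227139, - strand): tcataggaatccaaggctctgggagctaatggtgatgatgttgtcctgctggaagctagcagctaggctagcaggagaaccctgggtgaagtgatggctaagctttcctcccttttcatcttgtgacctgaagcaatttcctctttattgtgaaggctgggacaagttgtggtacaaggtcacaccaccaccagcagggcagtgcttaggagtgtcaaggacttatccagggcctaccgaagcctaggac
The Kcnj10 window was 62.0% G and C with 17 CG pairs, and the other windows held 1 (Kcnj15), 6 (Kcnn4) and 1 (Kcnf1).

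Levels are given as CPM, counts brought to the same library size by TMM scaling, with the duplicate libraries of a tumor summed. Library totals ran from 20503474 to 46302223 counts, and the channel genes together took from 0.0567% to 0.191% of a library. A count of 3 corresponded to between 0.0378 and 0.122 CPM in a tumor, and intervals and limits of this kind cover counting error only. Duplicates of the same tumor differed in channel genes with at least 50 counts by a median factor of 1.07 to 1.15. KP 3802, a single library with the lowest total, stood apart. Its 1547 olfactory and vomeronasal receptor genes, which are silent in most tissues, stood at 0.107 CPM per kilobase of exon, against 0.00278 to 0.0239 in the other tumors. In 3802, 70 of the 134 channel genes were at or under 3 times that background, against 28 to 54 in the other tumors.

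Of the 134 channel genes, 114 had enough counts to be tested and 20 did not. The untested genes were Cacng3, Cacng5, Kcna3, Kcna10, Kcnd2, Kcne1, Kcng3, Kcnh6, Kcnj1, Kcnj5, Kcnj9, Kcnj13, Kcnj16, Kcnk16, Kcnk18, Kcnmb2, Kcnmb3, Kcns2, Kcnv1 and Kcnv2, of which Kcna3 reached 6.06 CPM in 3800, Cacng5 reached 2.60 CPM in 3802, and the others did not exceed 1.42 CPM. None of the 114 passed an adjusted p of 0.05 in the edgeR quasi-likelihood test, in which 45 of 24743 genes passed (0.101% higher in dFLEx and 0.0808% lower). The smallest adjusted p of a channel gene was 0.0929, for Kcnj15. At an unadjusted edgeR p under 0.05 there were 21 channel genes higher in dFLEx (18.4%, background 5.65%) and 16 lower (14%, background 4.93%). When library totals replaced TMM the counts were 16 and 19, and 2680 of all 24743 tested genes passed that p in either direction. Every dFLEx tumor lay above every KP tumor in 29 of the 114 (25.4%, background 13.7%) and below in 23 (20.2%, background 11.7%). DESeq2 on the same tumor sums called 15 of 115 channel genes higher (13%, background 3.55%) and 10 lower (8.7%, background 2.7%). The median log2 fold change of the tested channel genes was -0.45, beside -0.18 over all tested genes, with 53 above 0 and 61 below. When genes averaging under 1 CPM over the tumors were left out, the median of the channel genes was 0.35, beside -0.04 over all tested genes. Without 3802 the median of the channel genes was 1.04, beside 0.34 over all tested genes. The sign of the channel median thus rests on low values and on that library.

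**Figure D1:**
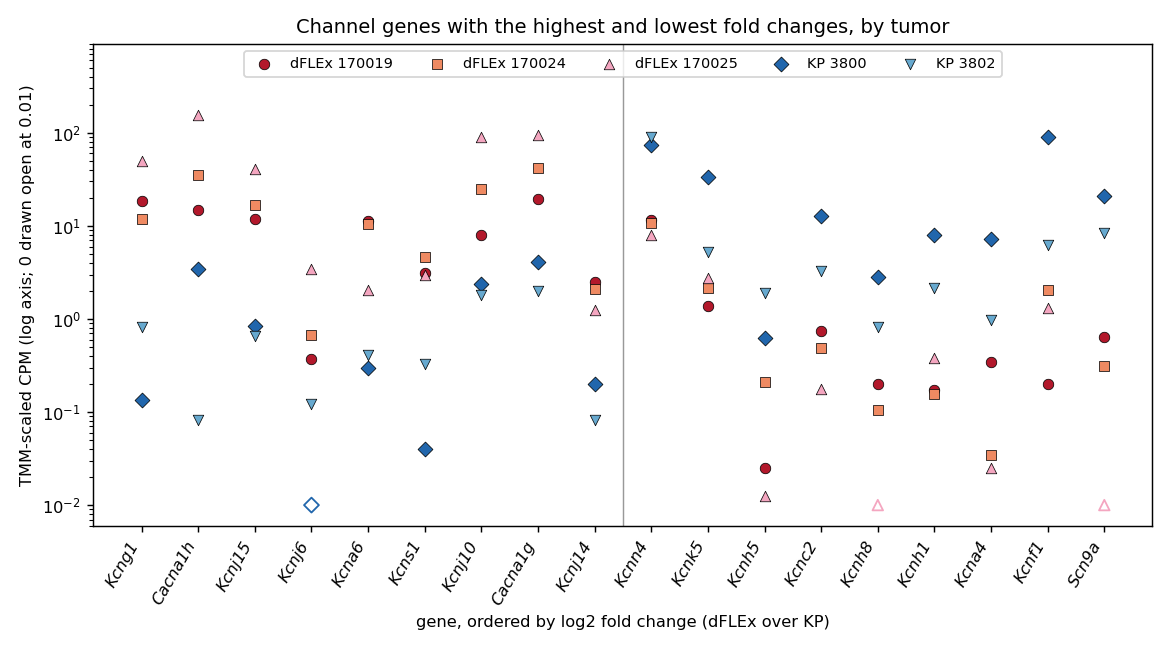
TMM-scaled CPM (log axis) of 9 of the 10 channel genes with the highest and 9 of the 10 with the lowest log2 fold changes among those with an unadjusted p under 0.05, 1 point per tumor, with values of 0 drawn open at 0.01. To the left of the line all 3 dFLEx tumors lie above both KP tumors, and to the right all lie below.

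**Figure D2:**
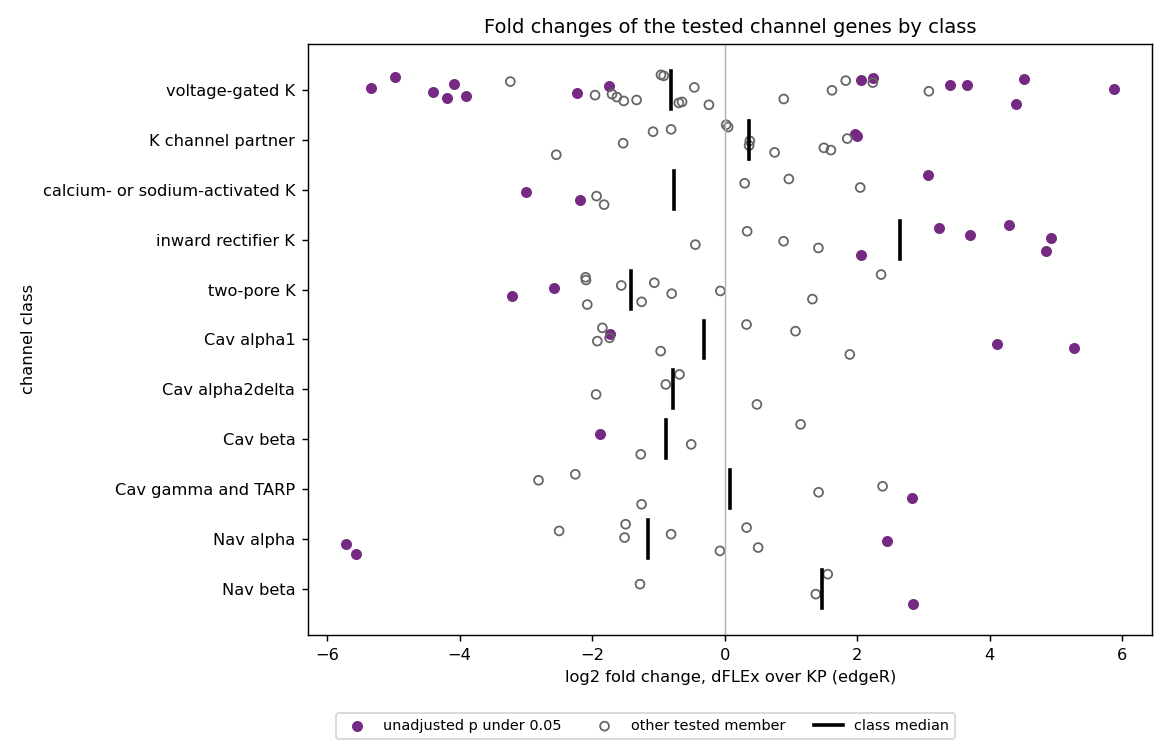
Log2 fold changes (dFLEx over KP) of the 114 tested channel genes by class, filled where the unadjusted p was under 0.05, with a bar at each class median. The inward rectifier class has its median at 2.64 and no filled point below 0, and the two-pore class has its median at -1.41 and no filled point above 0.

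The inward rectifier genes (Kcnj) were the class in which most tested members stood above KP. In 6 of the 10 tested genes every dFLEx tumor exceeded every KP tumor (background 13.7%), and none lay below (background 11.7%). The same 6 had an unadjusted edgeR p under 0.05 (background 5.65%). DESeq2 called 5 of them higher (background 3.55%), all but Kcnj8. The summed level of the class per kilobase of exon was 20.8, 26.7 and 41.3 CPM per kilobase in dFLEx 170019, 170024 and 170025, and 6.92 and 4.52 in KP 3800 and 3802.

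Kcnj15, which encodes the Kir4.2 subunit, stood at 11.8, 16.7 and 40.4 CPM in the dFLEx tumors and at 0.846 and 0.650 CPM in KP 3800 and 3802. The lowest dFLEx tumor was 14 times the higher KP tumor. The group means were 23.0 ± 15.3 CPM (SD, n = 3) and 0.748 ± 0.139 CPM (SD, n = 2), with a log2 fold change of 4.93 ± 0.89 (SE, edgeR adjusted p 0.0929). Kcnj10, which encodes Kir4.1, the main potassium buffer of glia and kidney tubules, stood at 7.89, 24.8 and 90.1 CPM in dFLEx and at 2.36 and 1.79 CPM in KP. The dFLEx tumors spread widely yet did not overlap KP, and the log2 fold change was 4.30 ± 1.16 (edgeR adjusted p 0.206). Without 170025 it was 2.96.

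Kcnj11 and Kcnj8 encode the pores of ATP-sensitive potassium channels (Kir6.2 and Kir6.1). Kcnj11, the pore found in muscle fibers and beta cells and named here after its values were seen, was at 6.64, 28.8 and 13.2 CPM in dFLEx and 1.46 and 1.99 CPM in KP (log2 fold change 3.23 ± 0.85, edgeR adjusted p 0.202). Kcnj8, the vascular form and the inward rectifier with the highest mean level per kilobase, was at 30.0, 18.8 and 21.4 CPM in dFLEx and 6.65 and 4.63 CPM in KP, a difference of 2.05 ± 0.63 on the log2 scale (edgeR adjusted p 0.264). Neither gene overlapped between the groups. Kcnj8 was the largest share of the class in 170019 (56.7% per kilobase), 3800 (37.7%) and 3802 (40.2%), whereas Kcnj11 (29.4%) led in 170024 and Kcnj10 (40.3%) in 170025. The regulatory partners of these pores did not separate the groups: Abcc9 was at 6.22, 15.8 and 43.2 CPM in dFLEx and 15.3 and 4.43 CPM in KP, and Abcc8 did not exceed 1.18 CPM in any tumor. The 8 endothelial markers summed to 497 to 626 CPM in dFLEx and to 185 and 258 CPM in KP. Of these, Pecam1 was at 85.0, 132 and 206 CPM in dFLEx and 37.9 and 25.5 CPM in KP. Every dFLEx tumor was above KP in 2 of the 8, beside 13.7% of all tested genes. The pericyte marker Rgs5 was at 826, 473 and 776 CPM in dFLEx and 249 and 16.5 CPM in KP. Of the 8 pericyte and smooth muscle markers, every dFLEx tumor was above KP in 1 (Rgs5) and below in 1 (Acta2). The shares of all tested genes were 13.7% and 11.7%. Acta2 was at 144, 87.6 and 252 CPM in dFLEx and 306 and 312 CPM in KP. The part of vessel cells in the Kcnj8 values was not tested.

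Kcnj14 was lower in level, at 2.49, 2.12 and 1.25 CPM in dFLEx and 0.202 and 0.0813 CPM in KP, again without overlap (log2 fold change 3.71 ± 1.06, edgeR adjusted p 0.232). Kcnj6, a G-protein-gated subunit of neurons, had 15, 39 and 276 counts in the dFLEx tumors and 0 and 3 counts in the KP tumors. Its level was 0.373, 0.676 and 3.48 CPM in dFLEx and did not exceed 0.122 CPM in KP, so its fitted log2 fold change of 4.85 depends on the prior count. Kcnj2 and Kcnj12, which carry the classical inward rectifier current of muscle and heart, overlapped between the groups (log2 fold changes 0.89 and 0.34). The 5 untested Kcnj genes, Kcnj1, Kcnj5, Kcnj9, Kcnj13 and Kcnj16, reached 0.569 CPM at most.

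**Figure D3:**
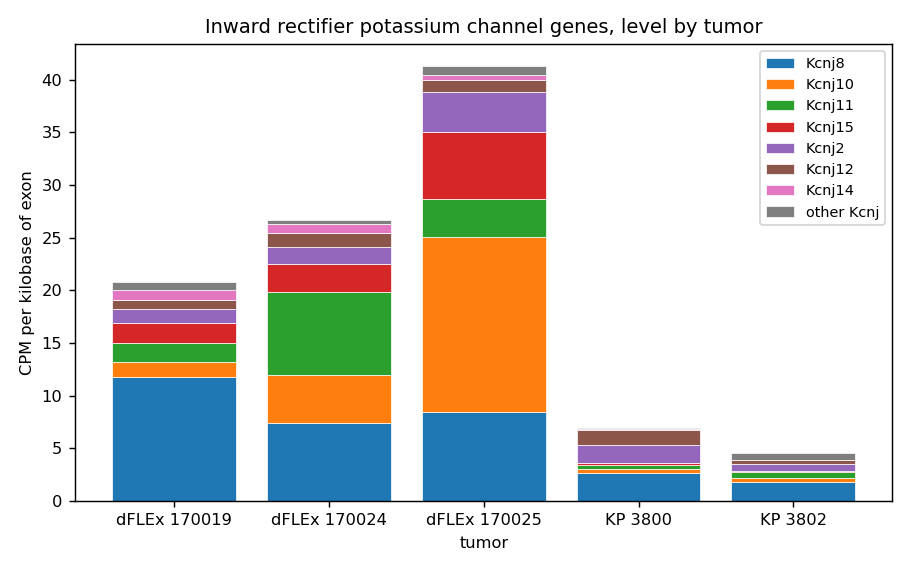
Stacked levels of the inward rectifier genes in CPM per kilobase of exon, 1 bar per tumor, with the less abundant Kcnj genes pooled. The bars sum to 20.8, 26.7 and 41.3 in dFLEx and to 6.92 and 4.52 in KP, and the leading gene differs between the dFLEx tumors.

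The 32 tested voltage-gated potassium channel genes lay in both directions. In 10 every dFLEx tumor was above KP (background 13.7%), and in 9 every dFLEx tumor was below (background 11.7%). Those above included the Kv3 gene Kcnc4, from a family of fast channels in repetitively firing cells, and the modifier subunits Kcng1 and Kcns1, which form no channel alone and alter Kv2 channels. Those below included Kcnh1, Kcnh5 and Kcnh8 of the ether-a-go-go family and the modifier Kcnf1. Of the 7 tested Kcnh genes, 0 had a positive log2 fold change, beside 10803 of all 24743 tested genes. In 3802, Kcnh1, Kcnh7 and Kcnh8 were under 3 times the receptor background, and Kcnh2, Kcnh3, Kcnh4 and Kcnh5 were over that limit.

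Kcng1 had the highest fold change of all channel genes. It stood at 18.4, 11.8 and 49.6 CPM in dFLEx and at 0.134 and 0.813 CPM in KP, and the lowest dFLEx tumor was 14.6 times the higher KP tumor. The log2 fold change was 5.88 ± 1.22 (edgeR adjusted p 0.120), and it stayed between 5.03 and 7.63 with any tumor left out. Kcns1 was at 3.13, 4.61 and 2.95 CPM in dFLEx and 0.0403 and 0.325 CPM in KP (log2 fold change 4.39 ± 1.14, edgeR adjusted p 0.196).

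Kcnc4 was the Kv gene with the highest mean level per kilobase, at 25.7, 60.1 and 84.0 CPM in dFLEx and 2.22 and 8.53 CPM in KP. It made up 30.4% to 41.3% of the summed Kv level per kilobase in the dFLEx tumors, against 1.35% in 3800 and 15.6% in 3802. Its log2 fold change was 3.40 ± 0.91 (edgeR adjusted p 0.204). Kcnc2, another Kv3 gene, lay the other way, at 0.746, 0.486 and 0.176 CPM in dFLEx and 12.6 and 3.25 CPM in KP (-4.09 ± 0.93, edgeR adjusted p 0.144). Kcna6, a Kv1 gene, was at 11.3, 10.6 and 2.07 CPM in dFLEx and 0.296 and 0.406 CPM in KP. Here 170025 was the lowest of the dFLEx tumors, and no tumors overlapped between the groups (4.52 ± 1.03, edgeR adjusted p 0.142). In GENCODE M39, 39.7% of the Kcna6 exon bases lie within exons of another gene. Reads there were lost only if the annotation used for counting held the same exons, which was not checked.

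Kcnf1 was the leading Kv gene of KP 3800, at 43.6% of the class per kilobase. It stood at 0.199, 2.03 and 1.31 CPM in dFLEx and at 89.1 and 6.26 CPM in KP, so both KP tumors were above dFLEx, with 3802 much nearer to dFLEx than 3800. The log2 fold change was -5.33 ± 1.30 (edgeR adjusted p 0.168), and -2.23 without 3800. Kcna4, an A-type channel, was at 0.348, 0.0347 and 0.0252 CPM in dFLEx and 7.25 and 0.975 CPM in KP (-4.97 ± 1.43, edgeR adjusted p 0.234). Kcnh1, the ether-a-go-go channel known for its expression in many tumors, was at 0.174, 0.156 and 0.378 CPM in dFLEx and 7.99 and 2.15 CPM in KP (-4.40 ± 0.92, edgeR adjusted p 0.121). In 3802 Kcna4 and Kcnh1 were 1.89 and 2.76 times the receptor background of that library, and in 3800 they were 249 and 181 times its background.

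Kcnh8 and Kcnh5 were of low level, with Kcnh8 at 0.199, 0.104 and 0 CPM in dFLEx and 2.83 and 0.813 CPM in KP and Kcnh5 at 0.0249, 0.208 and 0.0126 CPM in dFLEx and 0.618 and 1.91 CPM in KP. Their log2 fold changes were -4.20 ± 1.57 and -3.90 ± 1.52 (edgeR adjusted p 0.387 and 0.411). Kcnh8 and Kcnh5 were 1.67 and 4.41 times the receptor background in 3802. Kcnh3, Kcnh4, Kcnh6 and Kcnh7 did not exceed 3.17 CPM in any tumor. Kcna3, the Kv1.3 channel of lymphocytes, was below the filter and is named after its values were seen. It had 451 counts in KP 3800 (6.06 CPM), 0, 2 and 4 counts in the dFLEx tumors, and 0 counts in 3802, which allows up to 0.122 CPM there. T cell marker genes summed to 23.1, 14.9 and 13.4 CPM in dFLEx 170019, 170024 and 170025, 17.2 CPM in 3800 and 63.2 CPM in 3802. The part of T cells in the Kcna3 values was not tested.

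Among the 8 calcium- or sodium-activated potassium channel genes, Kcnn4 and Kcnma1 lay in opposite directions. Kcnn4 encodes the intermediate-conductance channel of immune cells, red cells and epithelia. It stood at 11.7, 10.9 and 7.99 CPM in dFLEx and at 73.8 and 89.2 CPM in KP, with group means of 10.2 ± 1.93 (SD, n = 3) and 81.5 ± 10.9 (SD, n = 2). Both groups were tight, and the lower KP tumor was 6.32 times the highest dFLEx tumor. The log2 fold change was -3.0 ± 0.56 (edgeR adjusted p 0.0936) and ran from -3.16 to -2.84 with any tumor left out, the narrowest range of the 20 genes chosen by fold change. Macrophage marker genes summed to 674 to 863 CPM in dFLEx, 1491 CPM in 3800 and 4548 CPM in 3802, and their part in the Kcnn4 values was not tested. Kcnn4 held 88.3% and 89.7% of the class per kilobase in the KP tumors.

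Kcnma1, the large-conductance channel of smooth muscle and neurons, was at 13.3, 10.7 and 55.6 CPM in dFLEx and 1.38 and 4.96 CPM in KP, and is named because DESeq2 called it, after its values were seen (log2 fold change 3.07 ± 1.05, edgeR adjusted p 0.328). In 170025 it replaced Kcnn4 as the leading gene of the class. Among the 8 pericyte and smooth muscle markers, Des, which skeletal muscle also makes, and Rgs5 made up most of the sum in each tumor (2223 to 3904 CPM in dFLEx, 1062 and 1671 CPM in KP). Of the others, Abcc9, Myh11, Acta2, Cspg4, Pdgfrb and Notch3 were highest in 170025 among the dFLEx tumors, as Kcnma1 was. Where the dFLEx mean was 1 CPM or more, 54.1% of all tested genes were highest in 170025. Between the groups, Rgs5 alone of the 8 markers was above KP in every dFLEx tumor, and Acta2 alone was below. Myh11 was at 1.22, 2.81 and 10.1 CPM and Notch3 at 8.73, 20.3 and 103 CPM in dFLEx, and in KP they were at 1.40 and 2.07 CPM and at 64.6 and 7.84 CPM. The part of smooth muscle cells in the Kcnma1 values was not tested.

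Of the 12 tested two-pore genes, 10 had a negative log2 fold change, beside 13940 of all 24743 tested genes. Low levels enter this count. Among the 10, Kcnk15, Kcnk9 and Kcnk4 were 2.28, 2.45 and 1.54 times the receptor background in 3802. Kcnk5, an acid-sensitive background channel, was at 1.37, 2.17 and 2.78 CPM in dFLEx and 33.8 and 5.28 CPM in KP (-3.21 ± 0.85, edgeR adjusted p 0.202). Both KP tumors were above dFLEx, and without 3800 the log2 fold change was -1.16. Kcnk6, the member with the highest mean level per kilobase, overlapped between the groups at 5.87, 9.52 and 29.5 CPM in dFLEx and 5.78 and 6.18 CPM in KP (1.32 ± 0.82, edgeR adjusted p 0.721). The leading two-pore gene was Kcnk6 in every dFLEx tumor, Kcnk5 in 3800 (40.4% per kilobase) and Kcnk3 in 3802 (20.2%).

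Potassium channel partner subunits showed 3 genes with all dFLEx tumors above KP and 0 below among 14 tested, beside 13.7% and 11.7% of all tested genes. Kcne3, a small membrane subunit that modifies Kv7 and other Kv channels, was at 18.2, 8.86 and 11.8 CPM in dFLEx and 3.84 and 2.76 CPM in KP (log2 fold change 1.97 ± 0.67, edgeR adjusted p 0.320). It led the class per kilobase in 4 of 5 tumors, and Kcnab2 led in 3802.

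Among the calcium channel pores, 2 T-type genes had the highest fold changes. Of the T-type genes, which open at low voltage and carry no requirement for a beta subunit, Cacna1g and Cacna1h were higher in dFLEx and Cacna1i was low throughout (1.26 CPM at most). Cacna1g stood at 19.4, 42.3 and 95.7 CPM in dFLEx and at 4.04 and 1.99 CPM in KP. Cacna1h stood at 15, 34.9 and 156 CPM in dFLEx and at 3.41 and 0.0813 CPM in KP. For both genes the order of the dFLEx tumors was the same, with 170025 highest, and no dFLEx tumor overlapped KP. Of all tested genes with a dFLEx mean of at least 1 CPM, 54.1% were also highest in 170025. The log2 fold changes were 4.11 ± 0.94 for Cacna1g (edgeR adjusted p 0.144) and 5.27 ± 1.70 for Cacna1h (edgeR adjusted p 0.296). The second of these rested on 2 counts in 3802, and without 3800 the Cacna1h estimate was 9.86. T-type genes summed to 3.48, 7.80 and 25.5 CPM per kilobase in dFLEx and to 0.817 and 0.332 in KP.

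The L-type pore of skeletal muscle, Cacna1s, did not separate the groups, at 2.79, 39.7 and 62.6 CPM in dFLEx and 17.3 and 1.54 CPM in KP, and is named for comparison after its values were seen. Cacna1a, the P/Q-type pore of nerve terminals, was at 25.8, 25.8 and 35.0 CPM in dFLEx and 38.9 and 6.95 CPM in KP, and it was the leading pore per kilobase in 170019 (32.3%) and 3800 (42.1%). Each dFLEx tumor had its own leading Cav pore: Cacna1a in 170019, Cacna1s in 170024 (36.8%) and Cacna1h in 170025 (41.2%).

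Of the main auxiliary calcium channel subunits, Cacnb1 lay higher in every dFLEx tumor than in KP, and Cacnb3 and Cacna2d1 overlapped. Cacnb1, the beta subunit of muscle, was at 18.6, 58.2 and 26.3 CPM in dFLEx and 15.3 and 15.7 CPM in KP, and Cacnb3 was at 16.0, 20.7 and 18.9 CPM in dFLEx and 34.4 and 18.2 CPM in KP. Neither gene passed the test (log2 fold changes 1.15 ± 0.69 and -0.50 ± 0.58, edgeR adjusted p 0.709 and 0.893). Cacna2d1, the alpha2delta subunit that binds gabapentin, was at 15.7, 41.0 and 36.9 CPM in dFLEx and 69.9 and 30.1 CPM in KP (-0.68 ± 0.67, edgeR adjusted p 0.874). It held over 76% of the alpha2delta level per kilobase in every tumor. Without 3800 the estimates for Cacnb3 and Cacna2d1 turned to 0.19 and 0.22.

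Cacng genes encode the gamma subunit of muscle (Cacng1), a relative of it (Cacng6), and the TARP subunits that traffic AMPA-type glutamate receptors (Cacng4, Cacng7 and others). Cacng4 stood at 87.3, 105 and 112 CPM in dFLEx, the tightest dFLEx values of the abundant members, and at 0.202 and 38.7 CPM in KP. All dFLEx tumors were above KP, but the KP tumors differed so widely that the log2 fold change was 2.38 ± 1.53 (edgeR adjusted p 0.742). Without 3802 it was 8.98 with an edgeR adjusted p of 0.0144, in a fit that assumes that the lone KP tumor varies as the dFLEx tumors do. Cacng7 was at 13.9, 12 and 43.9 CPM in dFLEx and 4.49 and 2.03 CPM in KP (2.83 ± 0.88, edgeR adjusted p 0.271). Cacng6 was at 16.1, 76.5 and 15.6 CPM in dFLEx and 2.36 and 24.7 CPM in KP, and overlapped.

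Cacng1 had the highest mean level per kilobase of all channel genes, and a single tumor set it. It stood at 76.6, 206 and 40.7 CPM in dFLEx, 18.9 CPM in 3800 and 1007 CPM in 3802, where it alone made up 85.4% of the summed channel level per kilobase. The log2 fold change was -2.25 ± 1.30 (edgeR adjusted p 0.674) and turned to 2.53 without 3802. Skeletal muscle marker genes, the tissue in which Cacng1 is known to act, summed to 5027 CPM in 3802 against 10304, 38292 and 10921 CPM in the dFLEx tumors and 1802 CPM in 3800. Its neighbours on chromosome 11 were examined after this value was seen. Cacng1 lies at chr11:107594044-107607348 (GRCm39, - strand). Helz and Psmd12, on its lower-coordinate side, stood at 635 and 844 CPM in 3802 and at 34.8 to 85.1 and 78.7 to 179 CPM in the other tumors. Among 14 tested protein-coding genes within 2000 kb on the higher-coordinate side, 10 had their highest level in 3802, at a median of 4.42 times the median of the other tumors. On the lower-coordinate side 8 of 34 did, with a median ratio of 0.528. Within 500 kb of Cacng1 on either side, 3802 was highest in 8 of 11 tested genes, beside 26.4% of the other tested genes of chromosome 11 and 31.6% of all tested genes. Tumor DNA was not analysed here, and whether a change of copy number has a part in the Cacng1 level of 3802 was not tested. Cacng4, the next gene, was not highest in 3802. At 38.7 CPM there it was below every dFLEx tumor but above the other KP tumor, 3800 (0.202 CPM).

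**Figure D4:**
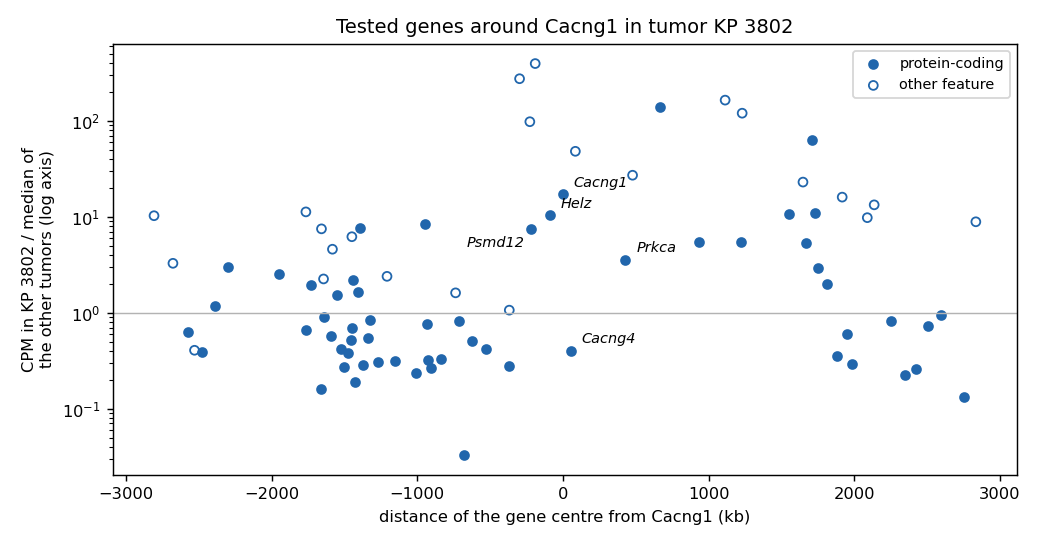
Ratio of the CPM in KP 3802 to the median CPM of the other tumors (log axis) for tested genes against the distance of the gene centre from Cacng1 in kb. Cacng1, Helz and Psmd12 lie at 17.2, 10.4 and 7.48, and most points on the right of it out to Slc16a6 lie above 1, with Cacng4 at 0.403.

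Among the sodium channel genes, Scn9a, the pore of pain-sensing neurons, was at 0.647, 0.312 and 0 CPM in dFLEx and 21.2 and 8.29 CPM in KP, and the lower KP tumor was 12.8 times the highest dFLEx tumor (-5.56 ± 1.45, edgeR adjusted p 0.197). Scn9a was 6.09 times the receptor background in 3802.

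Scn4a, the pore of adult muscle, and its partner gene Scn4b are named after their values were seen. Scn4a was at 4.60, 41.4 and 41.0 CPM in dFLEx and 4.23 and 6.42 CPM in KP, and Scn4b was at 5.05, 48.1 and 45.1 CPM in dFLEx and 3.33 and 5.85 CPM in KP. For both genes 170019 lay at the level of the KP tumors while 170024 and 170025 were higher. The 12 muscle markers summed to similar levels in 170019 and 170025 (10304 and 10921 CPM), but the members differed. Myh4 was at 264 CPM in 170019 and 1489 CPM in 170025, Myh1 at 58.0 and 306 CPM, Ttn at 47.0 and 188 CPM and Ryr1 at 61.3 and 277 CPM, in the order of Scn4a and Scn4b. Tnni2 (1985 and 905 CPM) and Mylpf (1928 and 1028 CPM) lay the other way. In 7 of the 12 markers every dFLEx tumor was above KP, beside 13.7% of all tested genes. The part of muscle fibers in the levels of the muscle channel genes was not tested.

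Some neuronal markers were also higher in the KP tumors. The neuron list summed to 17.6 to 21.6 CPM in dFLEx, 641 CPM in 3800 and 166 CPM in 3802, of which Stmn2 (279 and 61.7 CPM) and Nefm (317 and 75.3 CPM) made up most. Tubb3 was at 27.2 and 16.4 CPM in KP and at 5.10 to 13.2 CPM in dFLEx, and Syn1 was at 15.3 CPM in 3800, 1.14 CPM in 3802 and at most 1.02 CPM in dFLEx. In these 4 markers every KP tumor was above every dFLEx tumor, beside 11.7% of all tested genes. The remaining 4 overlapped, with Rbfox3 at 0.0806 and 5.69 CPM in KP, Snap25 at 0.981 and 2.32 CPM, Syt1 at 0.470 and 1.30 CPM and Elavl4 at 0.148 and 2.15 CPM. Schwann cell and glia markers summed to 45.9 to 86.6 CPM in dFLEx and to 22.5 and 15.6 CPM in KP, and endocrine markers to at most 7.60 CPM. The part of nerve tissue in these values was not tested.

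**Figure D5:**
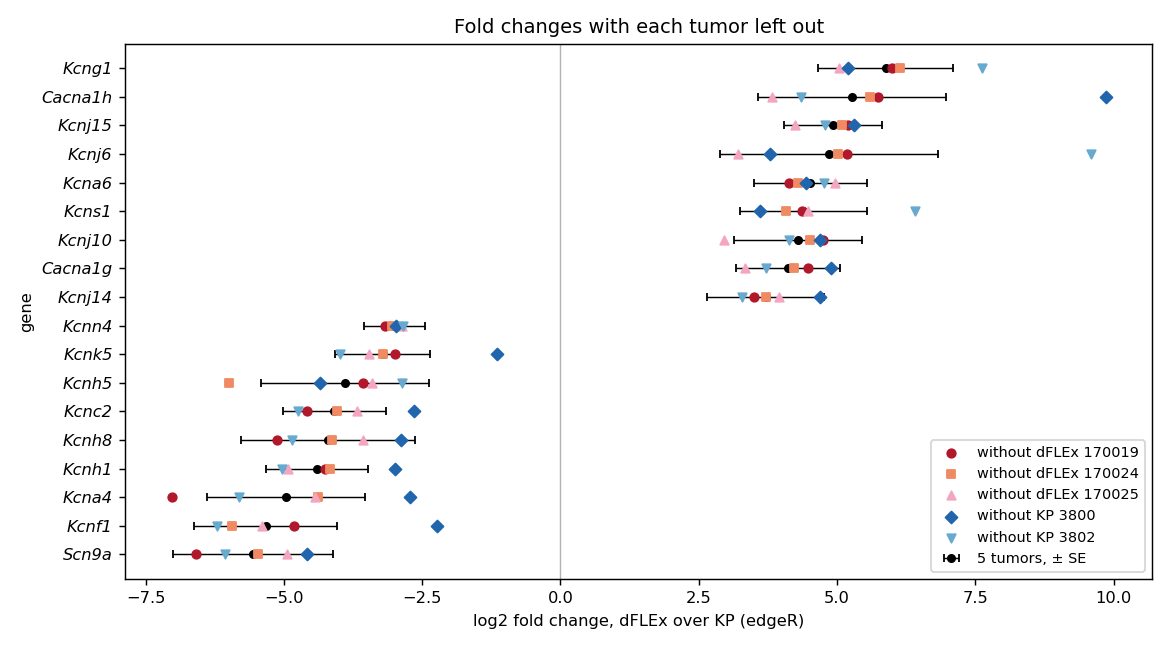
Log2 fold changes of 18 of the genes chosen by fold change in the fit of 5 tumors (black, ± SE) and with each tumor left out (colored). The groups do not overlap in these genes, so leaving out a tumor could hardly turn a sign. Kcnn4 moves least (-3.16 to -2.84), and leaving out KP 3800 moves Kcnf1 to -2.23.

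Single tumors led in both directions. Of the 21 channel genes higher in dFLEx at an unadjusted edgeR p under 0.05, 12 were highest in 170025 (57.1%, beside 47.2% of the 1397 genes higher at that p), 5 in 170024 and 4 in 170019. Where the dFLEx mean was 1 CPM or more, 170025 was highest in 36 of 68 channel genes (52.9%) and in 54.1% of all 14717 genes. Of the 16 lower channel genes, 12 were higher in 3800 than in 3802 (75%, beside 63.9% of the 1220 genes lower at that p). All 16 were above 3 times the receptor background in 3800, and 11 were in 3802.

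Further channel genes outside the naming rule had an unadjusted edgeR p under 0.05 and are given after their values were seen. Higher in dFLEx without overlap were Kcna5 and Kcna7, Kv1 genes of vessels and muscle. Kcna5 was at 2.14, 2.44 and 4.84 CPM in dFLEx and 0.376 and 0.975 CPM in KP, and Kcna7 at 2.59, 8.93 and 9.46 CPM in dFLEx and 1.60 and 1.75 CPM in KP. Kcne4, a small subunit that damps Kv1 and Kv7 channels, was at 2.74, 4.58 and 4.08 CPM in dFLEx and 1.01 and 0.894 CPM in KP, also without overlap. Lower in dFLEx without overlap were Cacna1d, the L-type pore of endocrine and pacemaker cells, at 1.49, 1.02 and 2.08 CPM in dFLEx and 5.04 and 5.12 CPM in KP, and Cacnb2, at 1.04, 0.954 and 2.24 CPM in dFLEx and 6.86 and 3.54 CPM in KP. Kcnd1, an A-type Kv4 gene, was at 1.49, 2.34 and 1.90 CPM in dFLEx and 8.07 and 4.71 CPM in KP. Kcnt2, a sodium-activated potassium channel, was at 0.299, 0.433 and 0.302 CPM in dFLEx and 1.44 and 1.71 CPM in KP. In all 4 genes each KP tumor was above dFLEx. In 3802, however, Cacnb2 and Kcnt2 were only 2.51 and 2.29 times the receptor background, and Cacna1d and Kcnd1 were 3.16 and 8.36 times.

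For Kcnh2, the pore that repolarizes the heart, and Kcnk2, a mechanosensitive two-pore channel, a high value in 3800 alone stood behind the difference. Kcnh2 was at 2.86, 5.95 and 2.52 CPM in dFLEx, 30.1 CPM in 3800 and 5.32 CPM in 3802. Kcnk2 was at 2.31, 4.59 and 2.62 CPM in dFLEx, 33.7 CPM in 3800 and 4.02 CPM in 3802. In both genes 3802 lay within the range of the dFLEx tumors, and leaving out 3800 gave log2 fold changes of -0.34 and -0.18. Kcnn3, a small-conductance channel with an unadjusted edgeR p of 0.0897, is set beside them after its values were seen. Its fold change rested in the same way on 170025, at 4.28, 4.2 and 30.9 CPM in dFLEx and 3.91 and 2.44 CPM in KP, and was 0.41 without that tumor.

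Position was a property that the rule did not use. Many channel genes lie beside a relative, and neighbours differed in level and direction. On chromosome 2 (GRCm39), Scn9a lies 39240 bases from Scn1a and 38463 bases from Scn7a, the atypical channel that senses sodium levels. Scn9a was higher in KP, Scn1a was at 0.645 CPM in 3800 and 3.74 CPM in 3802, and Scn7a was at 9.06, 11.2 and 25.0 CPM in dFLEx and 11.6 and 9.67 CPM in KP. On chromosome 1, Kcnj10 lies 11892 bases from Kcnj9, which did not exceed 0.199 CPM in any tumor. On chromosome 6, Kcna6 lies 61945 bases from Kcna1, which did not exceed 0.691 CPM. On chromosome 9, Scn4b lies 8325 bases from Scn2b, whose level was 0.647, 0.624 and 0.365 CPM in dFLEx and 0.269 and 2.40 CPM in KP.

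Genes that handle the same ions outside the rule were counted by list, and none passed an adjusted edgeR p of 0.05. The counts that follow are at an unadjusted edgeR p under 0.05, which 5.65% of all tested genes passed as higher and 4.93% as lower. Of 13 genes of intracellular calcium release and store entry, 2 were higher and 1 was lower. The highest was Ryr1, the release channel of muscle, at 61.3, 317 and 277 CPM in dFLEx and 58.8 and 43.1 CPM in KP (log2 fold change 2.10 ± 0.81), and the lowest was Ryr3 (-2.60 ± 1.05). Among 11 calcium pumps and exchangers 2 were higher and 1 lower. Atp2a1, the calcium pump of fast muscle, stood at 506, 1620 and 1226 CPM in dFLEx and at 150 and 137 CPM in KP (2.96 ± 0.70), and Atp2b1, a plasma membrane pump, lay the other way (-1.49 ± 0.56). Of 7 sodium pump subunits, 1 was higher (Atp1b2, 3.71 ± 0.90) and 1 lower. Of 23 other cation channels and partners, 3 were higher and 1 lower. The highest of these was Unc79, a subunit of the sodium leak channel, at 2.41, 5.77 and 22.8 CPM in dFLEx and 0.107 and 1.83 CPM in KP (3.46 ± 1.45). The lowest was Ank3, which anchors sodium and Kv7 channels in the membrane, at 33.0, 35.8 and 22 CPM in dFLEx and 240 and 79.6 CPM in KP (-2.40 ± 0.65).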

How the data were processed

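Bulk RNA-seq libraries (rRNA-depleted, paired-end) were made from duplicates of the RNA of each tumor. The authors trimmed reads with Trimmomatic (0.39), aligned them with STAR (2.7.10a) to GRCm39 with an added construct contig and deposited raw counts per gene made with featureCounts (Subread 2.0.3), per the file headers and the submitters' processing notes. Strand was ignored, each mate of a pair was counted, and reads with several alignments or over several genes were not counted, so overlapping and near-identical genes lose reads. Of 10 libraries in the labels, 9 have a column in the table. The other duplicate of 3802 was not analysed here. The study compared the groups with DESeq2.

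Symbols came from GENCODE M39 by Ensembl identifier (98.7% of features), and coordinates from the table (GRCm39). Exon overlaps use GENCODE M39. Counts of a tumor's libraries were summed, since duplicates share their RNA, and genes were filtered with filterByExpr, scaled by TMM and tested with edgeR (4.0.16, glmQLFit and glmQLFTest, R 4.3.3), with p-values adjusted by Benjamini-Hochberg across 24743 genes and calls made under 0.05. The script was tested on simulated data, on which limma-voom called too many unchanged genes. SE was obtained from the log2 fold change and the F statistic (its absolute value over the root of F). With 3 tumors against 2, an exact permutation test cannot go below 0.2, so summed levels carry no p. The labels do not say that tumors come from separate mice, so p-values measure the spread between these tumors. Levels per kilobase use the exon length of the table.

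Alternatives were DESeq2 (1.42.0), 9 libraries as samples, with the duplicate number as a replicate block or the tumor as a random effect in limma-voom (3.58.1), other scalings and filters, and each tumor left out. A receptor background per kilobase was subtracted in a fit chosen after seeing the data. Genes were named where the adjusted p was under 0.05, for the 10 highest and 10 lowest log2 fold changes among those with an unadjusted p under 0.05 and a mean of at least 1 CPM in a group, for the 10 highest mean levels per kilobase, for 0 counts in a whole group against at least 1 CPM, and for the highest level in each class. The rules on the adjusted p and on 0 counts named no gene. Some genes that the rules name, and an allele of the KP mice, are not reported here. The members and lists were chosen with earlier results of these data known.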

Additional observations from a re-analysis of the deposited data

How the results depend on the processing

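Counts of calls depended on the method. The main edgeR test called 45 genes, of them 0 channel genes. With DESeq2 on tumor sums there were 1396 calls, with 15 channel genes higher and 10 lower. Treating 9 libraries as independent samples gave 3344, 20 and 17, and the duplicate number as a replicate block gave 2476, 16 and 14. Both count duplicates of a tumor as replicates. In limma-voom, with a random effect for the tumor, the counts were 543, 4 and 1. No filter on low counts gave 880, 12 and 9, and a mean of at least 1 CPM gave 80 calls and no channel gene. The causes of these differences were not tested. With a tumor left out, calls ran from 0 to 414, channel genes higher from 0 to 3 and lower from 0 to 6, all of the latter without 3802 (Kcns1, Kcng1 and Cacng4 higher, and Kcnh1, Kcna3, Kcnc2, Kcnk5 and Kcnf1 among the lower). In such a fit with a lone KP tumor, that tumor is assumed to vary as the dFLEx tumors do. Of 477 fold changes of the 32 named genes under these alternatives, 474 kept their direction. Of the 32, 20 were chosen for the highest and lowest fold changes in the same data, so their signs could hardly turn. The exceptions to the kept directions were Cacna2d1 (0.22) and Cacnb3 (0.19) without 3800 and Cacng1 (2.53) without 3802. Their ranges with a tumor left out were -1.15 to 0.22, -0.88 to 0.19 and -3.18 to 2.53. Library totals in place of TMM shifted the median of all genes by -0.30 and upper-quartile scaling by -0.21. Subtracting the receptor background gave 63 calls and no channel gene. At an unadjusted edgeR p under 0.05 it gave 22 higher and 13 lower among 110 tested channel genes. In that fit 2636 of all 22792 tested genes passed that p in either direction. Low counts in 3802, which had the fewest reads and the highest background, limit what can be said of channel genes near 1 CPM.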
